A study of Homo sapiens with 51 samples.

Results

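The genes described are 9 secreted components of bone morphogenetic protein (BMP) signalling in human embryonic stem cells: 4 ligands (BMP2, BMP4, BMP5 and BMP7) and 5 secreted antagonists or modulators (NOG, FST, CHRD, BMPER and GREM1). They were taken by name from a table of 58051 gene rows, in which Ensembl identifiers were matched to symbols, and all 9 passed the filter on low counts. The study used RNA sequencing to follow the established line H1 of human embryonic stem cells as they left the pluripotent state. BMP4-treated cells received recombinant BMP4 at 50 ng/mL, and Activin+BMP4-treated cells received 10 ng/mL BMP4 together with Activin A at 100 ng/mL; both were sampled at 1, 6, 12, 24, 36, 48, 72 and 96 h. All treated cultures were in TeSR E5 medium with insulin at 3.2 µM, FGF2 at 20 ng/mL and LY29004 at 1 µM, whereas untreated cells (0 h) were in mTeSR1. Each of the 17 groups had 3 libraries, 51 in all. The treatments thus differ in 2 agents, added Activin and the dose of BMP4, which cannot be told apart here, and a comparison with untreated cells also spans the change of medium. The labels number the repeats but do not say whether these were separate cultures, so the p-values measure only the spread between these samples, which may be technical.

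BMPs are dimeric ligands of the transforming growth factor beta family that bind paired type I and type II receptors, which phosphorylate SMAD1, SMAD5 and SMAD9 and so switch on targets such as the ID genes. The secreted antagonists hold the ligands away from the receptors: noggin (NOG), chordin (CHRD) and gremlin (GREM1) bind BMPs, follistatin (FST) binds activins and also some BMPs, and BMPER is a chordin-like protein that can dampen or promote BMP signalling depending on context. In the mouse embryo BMP4 made outside the epiblast acts on it at gastrulation, while NOG and CHRD are made by the node. The added BMP4 is protein, so the BMP4 reads counted here come from the cells' own transcript.

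Library totals were 22.8 M to 30.4 M counts (median 24.9 M), and levels are given as CPM, counts scaled to the size of the library. Marker lists were summed to check the labels. A list of 9 pluripotency genes summed to 10546 ± 132 CPM in untreated cells. It summed to 4256 ± 133 CPM in BMP4-treated and 5281 ± 160 CPM in Activin+BMP4-treated cells at 96 h (SD, n = 3 each). In each of these groups 9 of 9 genes were at 1 CPM or more. At 96 h 8 definitive endoderm markers summed to 187 ± 18.5 CPM with BMP4 and, under Activin+BMP4, 3894 ± 589 CPM. At the same time 8 lateral plate and extraembryonic mesoderm markers summed to 1457 ± 98.7 CPM with BMP4 and, under Activin+BMP4, 52.8 ± 11.5 CPM. The sums of 8 amnion markers were 1538 ± 103 CPM and 52.8 ± 10.4 CPM. Those of 5 trophoblast markers were 46.6 ± 1.61 CPM and 33.6 ± 1.67 CPM, both below the 68.2 ± 3.37 CPM of untreated cells. Of these markers 2 reached 1 CPM with either treatment. Most of each trophoblast sum was SDC1, at 35.7 CPM with BMP4, 30.7 CPM with Activin+BMP4 and 66.4 CPM in untreated cells. A list of 4 neural ectoderm markers summed to 772 ± 71.5 CPM with BMP4 and, under Activin+BMP4, 581 ± 64.6 CPM at 96 h, against 467 ± 21.3 CPM in untreated cells. Most of the sum with BMP4 was NES, at 690 CPM and, under Activin+BMP4, 247 CPM. PAX6 and OTX2 went the other way, at 10.9 and 71.4 CPM with BMP4 and, under Activin+BMP4, 39.7 and 295 CPM. SOX1 had 0.0677 and 0.0116 CPM. The sum therefore does not show that neural ectoderm was favoured by BMP4. In bulk RNA more cells of one kind and more transcript per cell cannot be told apart, and this holds for every level below. The part that these shifts in cell type play in the changes of the 9 genes was not tested. In 3 groups a library stood apart from the other 2. These were replicate 2 of Activin+BMP4 at 48 h, replicate 3 of Activin+BMP4 at 96 h and, for BMP4, replicate 1 at 12 h. The one at 96 h had lower NOG, BMPER, FST, BMP2 and GREM1 than its fellows and a definitive endoderm sum of 3215 CPM against 4264 and 4202 CPM, and the differences between treatments at these times are given with and without them where the gene was called. Without BMP4 12 h replicate 1 the genes called for BMP4 against untreated cells at 12 h were 5 in place of 4, as CHRD joined (log2 1.06, edgeR adjusted p = 0.0183).

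Of the 9 genes, 6 had a start site in the RefSeq promoter table (GRCh38.p14), with 10 windows between them running from 250 bases before to 50 bases after the start. The 250 bases before a start are printed for the ligands BMP4 and BMP5 and the antagonists BMPER and CHRD. Transcripts of BMP4, BMPER and CHRD were called as higher with BMP4 at 96 h, while that of BMP5 appeared late in both treatments. Of several windows of a gene the first in the table is shown. Those of GREM1, which lie in exons, and that of FST, with 220 of the 250 bases in exons, are not. All are 5′ to 3′ on the strand of the gene, and capitals mark GGCGCC, a GC-rich element that SMAD proteins can bind, and TATAAA, the core of a TATA box. The regions are chr14:53955051-53955300 (minus strand) for BMP4, chr6:55875591-55875840 (minus strand) for BMP5, chr7:33904665-33904914 (plus strand) for BMPER and chr3:184379804-184380053 (plus strand) for CHRD.
BMP4: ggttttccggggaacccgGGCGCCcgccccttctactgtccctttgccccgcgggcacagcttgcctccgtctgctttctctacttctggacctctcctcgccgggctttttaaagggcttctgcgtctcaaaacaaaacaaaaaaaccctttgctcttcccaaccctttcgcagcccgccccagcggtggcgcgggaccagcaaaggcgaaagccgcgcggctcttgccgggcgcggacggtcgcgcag
BMP5: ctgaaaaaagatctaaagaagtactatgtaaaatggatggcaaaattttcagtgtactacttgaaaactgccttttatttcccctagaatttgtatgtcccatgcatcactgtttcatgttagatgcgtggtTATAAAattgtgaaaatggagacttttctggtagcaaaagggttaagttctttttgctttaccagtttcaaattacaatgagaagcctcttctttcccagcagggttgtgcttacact
BMPER: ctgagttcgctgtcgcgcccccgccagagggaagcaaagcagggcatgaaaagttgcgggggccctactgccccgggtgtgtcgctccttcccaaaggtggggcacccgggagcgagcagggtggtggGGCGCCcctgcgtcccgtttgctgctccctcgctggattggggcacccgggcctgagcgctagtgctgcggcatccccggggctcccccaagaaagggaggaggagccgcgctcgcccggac
CHRD: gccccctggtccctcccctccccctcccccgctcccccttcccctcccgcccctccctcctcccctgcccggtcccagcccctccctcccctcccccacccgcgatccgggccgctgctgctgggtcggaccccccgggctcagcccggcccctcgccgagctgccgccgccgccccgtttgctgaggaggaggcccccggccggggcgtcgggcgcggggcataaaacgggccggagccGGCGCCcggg
The stretches shown for BMP4, BMPER and CHRD were GC-rich, at 63.6%, 70.8% and 81.6% G or C, and each held 1 GGCGCC. The other start sites differed: the 250 bases before the other 2 starts of BMP4 held 0 GGCGCC, and those before the second start of BMPER held 2. Of the genes not shown, FST held 0 GGCGCC in this stretch, and GREM1 held 2 before its first start and 0 before its second. Whether GGCGCC goes with the response to treatment was not tested. The stretch before BMP5 was 35.6% G or C, held no GGCGCC and had 1 TATAAA, which lay near the middle of the stretch and not close to the start. Across all 35116 promoter windows of the table, searched on both strands over 300 bases, 19.2% held GGCGCC and 11.5% held TATAAA, while the shorter SMAD element GTCT was found in 84% and GGCNCC, which includes GGCGCC, in 64.7%. These matches describe letters in a window and are not sites of measured binding.

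The first comparison set BMP4 against Activin+BMP4 at matched times and asked how far the cells' own BMP ligands and antagonists diverge between the treatments. A gene was called at a change of 2-fold or more with p under 0.05 in edgeR's quasi-likelihood F test, after Benjamini-Hochberg adjustment over the 19603 genes tested. At 1 h 0 of the 9 genes were called by edgeR, 0 by DESeq2, and 0.00510% of all genes were called, with 934 genes at an unadjusted p under 0.05. At 6 h 2 were higher with BMP4 (NOG and CHRD) and 0.505% of all genes were called in either direction. At 12 h 1 was higher (NOG) beside 1.42% of all genes. At 24 h 3 were higher (BMP4, NOG and CHRD) and 1 lower (FST), beside 4.01%. At 36 h 2 were higher (BMP4 and NOG) and 2 lower (BMP2 and BMPER), beside 5.58%, and without BMP4 36 h replicate 1 the call count was 6 as BMP7 and GREM1 joined. At 48 h 3 were higher (BMP4, BMP7 and NOG) and 3 lower (BMP2, BMPER and GREM1), beside 9.25%. At 72 h 4 were higher (BMP4, NOG, CHRD and GREM1) and 1 lower (BMP2), beside 9.63%. At 96 h 5 were higher (BMP4, NOG, CHRD, BMPER and GREM1) and 1 lower (BMP2), beside 15.6%. The median log2 difference over the 9 genes was 0.88 at 24 h, -0.42 at 48 h and 2.45 at 96 h, beside 0.01, -0.00 and 0.00 over all genes tested.

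**Figure D1:**
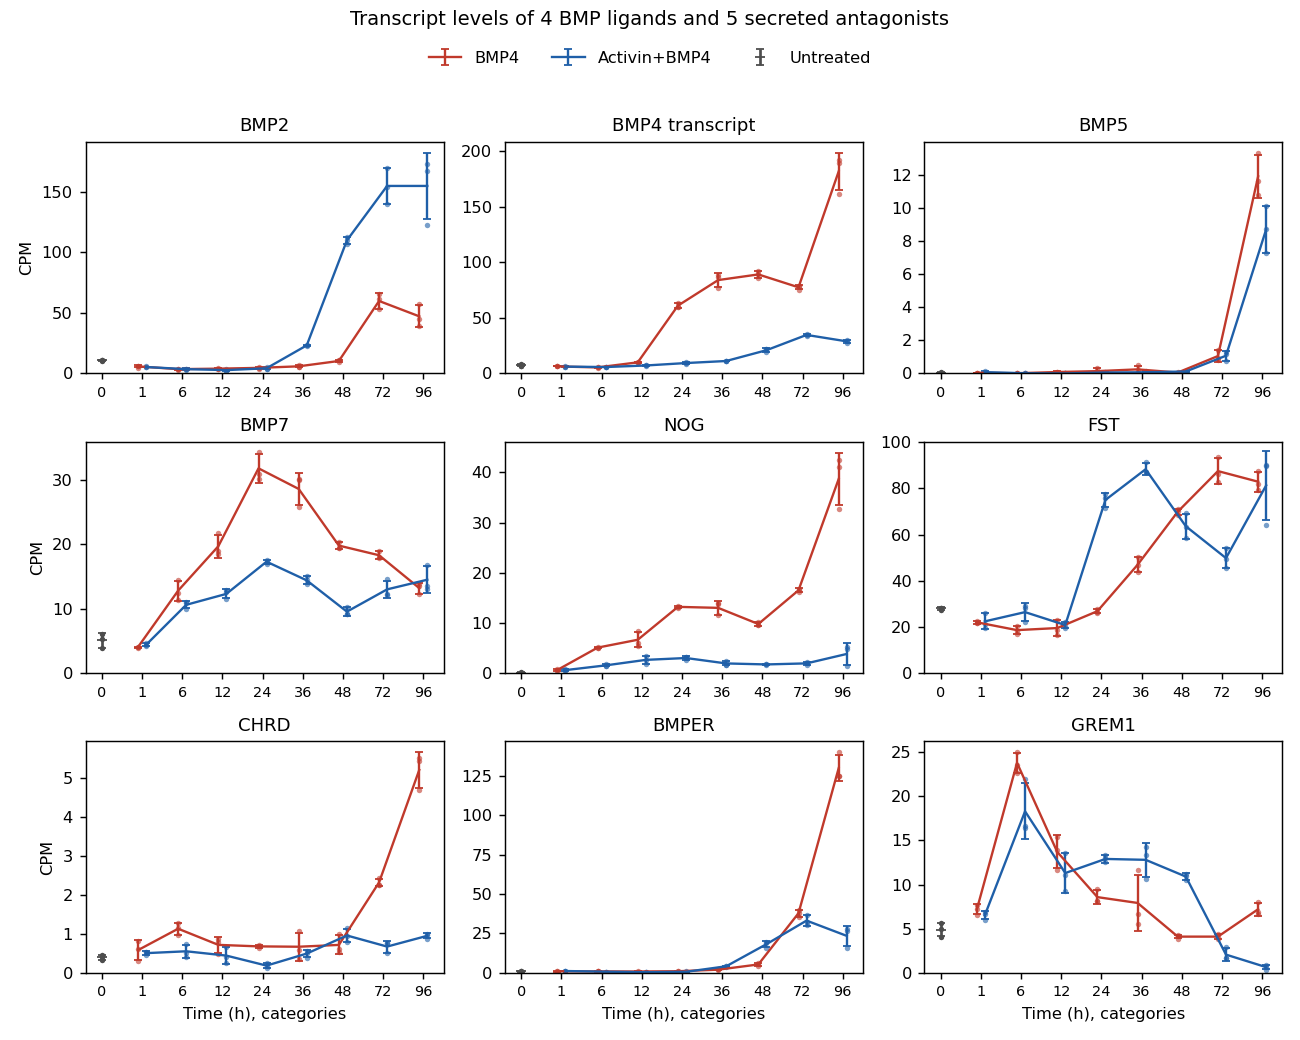
Levels of the 9 genes in CPM (vertical axes, linear from 0) by time in hours (horizontal axes, evenly spaced categories, 0 for untreated) in BMP4-treated cells (red), Activin+BMP4-treated cells (blue) and untreated cells (grey). Points are the 3 libraries of a group and lines with bars their mean and SD; the BMP4 transcript, NOG, CHRD and BMPER end highest with BMP4, and BMP2 with Activin+BMP4.

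**Figure D2:**
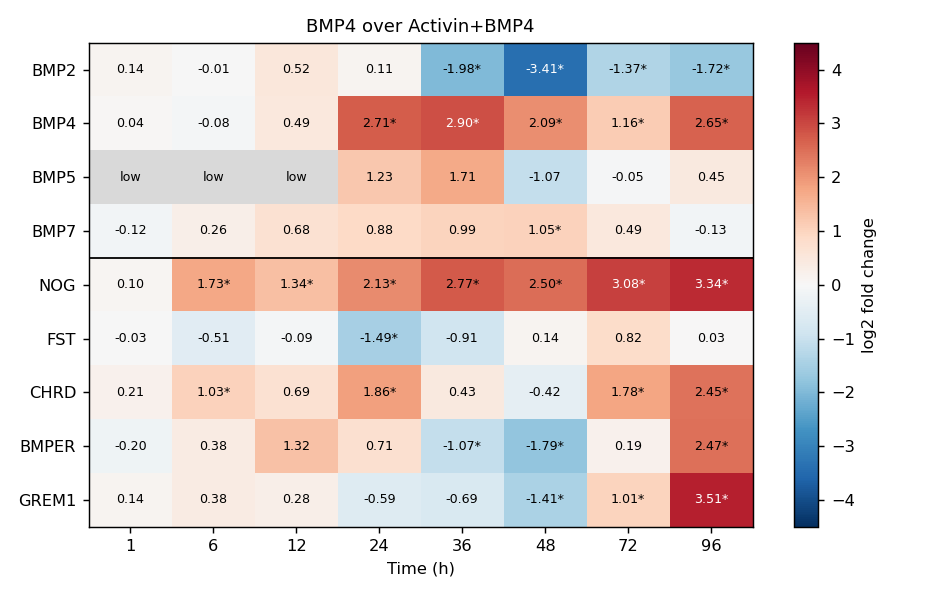
Log2 fold change of BMP4 over Activin+BMP4 for each gene (rows, ligands above the line and antagonists below) at each time (columns), with an asterisk where the gene was called. Grey cells marked low had 3 counts or fewer over a group and no fold is shown; BMPER is blue at 48 h (-1.79) and red at 96 h (2.47), as is GREM1 (-1.41 and 3.51).

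The BMP4 transcript was the first of the 4 ligand messages to be called between the treatments, at 24 h, and was called at every later time. BMP4 (ENSG00000125378, chr14:53949736-53958761, minus strand, GRCh38) encodes the ligand that the medium also supplied. At 12 h it stood at 10.1, 9.67 and 10.4 CPM in the BMP4-treated libraries, against 7.55, 7.58 and 6.36 CPM in the Activin+BMP4-treated ones, which was below the 2-fold limit for a call (log2 0.49 ± 0.08 SE), as was BMP7 at that time (log2 0.68 ± 0.10 SE). At 24 h the BMP4-treated libraries had 60, 63.5 and 59.8 CPM and the Activin+BMP4-treated libraries 9.9, 8.84 and 9.33 CPM, with untreated cells at 6.91, 8.21 and 7.09 CPM. The groups did not overlap at 24 h, and the transcript was 6.53-fold higher with BMP4 (log2 2.71 ± 0.07 SE, edgeR adjusted p = 4.34e-30). The difference was 7.48-fold at 36 h, 4.25-fold at 48 h (log2 2.09, and 2.02 without Activin+BMP4 48 h replicate 2) and 2.24-fold at 72 h, when the mean reached 77.6 ± 1.98 CPM with BMP4 and, under Activin+BMP4, 34.7 ± 0.655 CPM (SD, n = 3 each). At 96 h the BMP4-treated libraries had 192, 190 and 162 CPM and the Activin+BMP4-treated libraries 27.5, 29.9 and 29.3 CPM, a 6.28-fold difference (log2 2.65 ± 0.06 SE, edgeR adjusted p = 7.01e-34). It was 2.65 as well without Activin+BMP4 96 h replicate 3. Between 48 h and 96 h the transcript rose with BMP4 by 1.03 ± 0.05 (log2, SE; edgeR adjusted p = 2.57e-20), a call that was at the 2-fold limit and was lost without BMP4 96 h replicate 1 (log2 1.00).

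BMP2 went the other way, being lower with BMP4 from 36 h on. BMP2 (ENSG00000125845, chr20:6767664-6780280, plus strand) encodes the ligand most closely related to BMP4. It was first reduced in both treatments: at 12 h it had 4.57, 4 and 3.27 CPM with BMP4 and, under Activin+BMP4, 2.35, 2.29 and 3.62 CPM, against 10.1, 11.4 and 10.7 CPM in untreated cells. Both fell relative to untreated cells, by 1.44 ± 0.19 with BMP4 and by 1.96 ± 0.20 with Activin+BMP4 on the log2 scale (SE; edgeR adjusted p = 3.33e-08 and 1.5e-10), and the treatments overlapped. At 36 h BMP2 was at 6.94, 5.55 and 5.16 CPM with BMP4 and, under Activin+BMP4, 23.2, 22.5 and 23.9 CPM. By 48 h the libraries stood at 11.2, 10.7 and 9.05 CPM with BMP4 and, under Activin+BMP4, 107, 110 and 113 CPM, a 10.7-fold lower level with BMP4 (log2 -3.41 ± 0.13 SE, edgeR adjusted p = 2.9e-24; -3.42 without Activin+BMP4 48 h replicate 2). BMP4-treated cells had 53, 61.3 and 65.3 CPM at 72 h, against 170, 154 and 140 CPM with Activin+BMP4. The rise relative to untreated cells was first called at 72 h with BMP4 (5.57-fold) and at 36 h with Activin+BMP4 (2.16-fold). At 96 h the difference was 3.28-fold (log2 -1.72 ± 0.11 SE; -1.86 without Activin+BMP4 96 h replicate 3), with 57.1, 44.9 and 39.5 CPM for BMP4 and 167, 173 and 123 CPM for Activin+BMP4.

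BMP5 was the late ligand, close to absent in every group up to 48 h and present in both treatments at 96 h. BMP5 (ENSG00000112175, chr6:55753645-55875564, minus strand) had 2 counts over the 3 untreated libraries, 4 with BMP4 and 9 with Activin+BMP4 at 48 h. At 72 h it reached 0.925, 0.785 and 1.43 CPM with BMP4 and, under Activin+BMP4, 0.752, 1.32 and 1.15 CPM. At 96 h it had 10.8, 11.6 and 13.3 CPM with BMP4 and, under Activin+BMP4, 8.75, 10.1 and 7.27 CPM. The rise over untreated cells at 96 h was called in both treatments, with 1008 counts for BMP4 and 746 counts for Activin+BMP4 against 2 counts. As a ratio this was 438-fold for BMP4 (95% interval for counting error alone 121 to 3625) and 326-fold for Activin+BMP4 (89.8 to 2694). Both untreated counts were in replicate 1, without which the fitted log2 change was 11.25 in place of 8.54 for BMP4 and 10.80 in place of 8.09 for Activin+BMP4. Between the treatments the libraries did not overlap at 96 h, but the difference was not called (log2 0.45 ± 0.25 SE, edgeR adjusted p = 0.136; 0.33 without Activin+BMP4 96 h replicate 3). BMP5 was also called with BMP4 at 36 h from 17 counts, a ratio of 8.86 (2.1 to 79.1) that was lost without BMP4 36 h replicate 1.

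BMP7 rose by 6 h in both treatments, drew apart between them up to 48 h and then converged. BMP7 (ENSG00000101144, chr20:57168748-57266629, minus strand) encodes a ligand that can pair with BMP2 or BMP4 in heterodimers. At 6 h it had 11.4, 12.4 and 14.5 CPM with BMP4 and, under Activin+BMP4, 11, 10.9 and 9.98 CPM, against 3.82, 6.03 and 5.32 CPM in untreated cells, rises of 2.53-fold and 2.1-fold (edgeR adjusted p = 4.38e-13 and 2.59e-10; the call for Activin+BMP4 was lost without untreated replicate 1, log2 0.89). At 24 h, its highest mean in either treatment, it had 30.2, 34.4 and 30.9 CPM with BMP4 and, under Activin+BMP4, 16.9, 17.3 and 17.6 CPM. Those libraries did not overlap, yet the 1.85-fold difference stayed under the 2-fold limit. It was called at 48 h, at 19.8 ± 0.548 CPM with BMP4 and, under Activin+BMP4, 9.54 ± 0.664 CPM (2.08-fold higher, edgeR adjusted p = 5.26e-12; log2 1.11 without Activin+BMP4 48 h replicate 2). The libraries overlapped again at 96 h, with means of 13.2 ± 0.845 CPM for BMP4 and 14.5 ± 2.06 CPM for Activin+BMP4. An antisense gene overlaps BMP7, with 0 to 1 counts per library.

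NOG separated the treatments earlier than any ligand. NOG (ENSG00000183691, chr17:56593699-56595590, plus strand) encodes noggin, which binds BMP2, BMP4 and BMP7. The untreated libraries held 4 counts together, at 0, 0.0402 and 0.126 CPM. Already at 1 h the libraries had 0.527, 0.433 and 0.908 CPM with BMP4 (45 counts) and 0.566, 0.819 and 0.376 CPM with Activin+BMP4 (43 counts), both called as higher than untreated cells (edgeR adjusted p = 0.00309 and 0.00571) and overlapping each other. At 6 h the values were 5, 4.98 and 5.23 CPM with BMP4 and, under Activin+BMP4, 1.77, 1.39 and 1.44 CPM. This 3.31-fold difference was the first called among the 9 genes that held in every alternative fit (log2 1.73 ± 0.26 SE, edgeR adjusted p = 7.87e-06). NOG then stayed higher with BMP4 at each time, by 2.52-fold at 12 h (log2 1.34, and 1.46 without BMP4 12 h replicate 1), by 4.38-fold at 24 h and by 6.8-fold at 36 h. The difference was 5.67-fold at 48 h (log2 2.51 without Activin+BMP4 48 h replicate 2) and 8.46-fold at 72 h. By 96 h the BMP4-treated libraries had 42.4, 41 and 32.7 CPM, against 5.23, 4.82 and 1.39 CPM with Activin+BMP4, a 10.2-fold difference (log2 3.34 ± 0.21 SE, edgeR adjusted p = 1.13e-17). The lowest of these is Activin+BMP4 96 h replicate 3, without which the log2 difference was 2.94.

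FST rose in both treatments but on different schedules. FST (ENSG00000134363, chr5:53480409-53487134, plus strand) encodes follistatin, which binds activin with high affinity. At 24 h it had 27.9, 26.1 and 26.3 CPM with BMP4 and, under Activin+BMP4, 77.4, 71.7 and 76 CPM, against 28, 28.4 and 27.5 CPM in untreated cells. It was 2.8-fold lower with BMP4 at that time (log2 -1.49 ± 0.11 SE, edgeR adjusted p = 5.21e-15), and the groups did not overlap. At 72 h the order was reversed, at 93.5, 82.7 and 86.3 CPM with BMP4 and, under Activin+BMP4, 54.1, 49.4 and 45.7 CPM, without overlap but under the 2-fold limit (log2 0.82 ± 0.10 SE, edgeR adjusted p = 3.4e-09). By 96 h the means were 82.9 ± 4.41 CPM with BMP4 and, under Activin+BMP4, 81.3 ± 14.9 CPM (SD, n = 3 each) and the libraries overlapped; without Activin+BMP4 96 h replicate 3 the log2 difference was -0.12. FST was called against untreated cells from 48 h on with BMP4, and at 24, 36, 48 and 96 h with Activin+BMP4.

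CHRD was at low counts in every group up to 48 h and was highest with BMP4 at 96 h. CHRD (ENSG00000090539, chr3:184380073-184390736, plus strand) encodes chordin. At 6 h it had 0.967, 1.28 and 1.14 CPM with BMP4 (97 counts) and 0.406, 0.508 and 0.737 CPM with Activin+BMP4 (46 counts). That 2.04-fold difference (edgeR adjusted p = 0.0332) lost its call when replicate 1 or 2 of Activin+BMP4, or replicate 2 or 3 of BMP4, was left out at 6 h (log2 0.86, 0.98, 0.94 and 1.03). At 24 h it had 0.69, 0.635 and 0.703 CPM with BMP4 and, under Activin+BMP4, 0.247, 0.167 and 0.132 CPM, 3.63-fold higher with BMP4 on 49 and 13 counts. At 72 h the BMP4-treated libraries had 2.26, 2.43 and 2.26 CPM, against 0.752, 0.495 and 0.767 CPM with Activin+BMP4. By 96 h they had 4.69, 5.51 and 5.44 CPM, against 1, 0.87 and 0.975 CPM with Activin+BMP4, with no overlap and a 5.48-fold difference (log2 2.45 ± 0.26 SE, edgeR adjusted p = 4.74e-11; 2.47 without Activin+BMP4 96 h replicate 3). Exons of CHRD share 361 bases with THPO on the opposite strand, which had 1 to 50 counts per library (median 9). Whether reads were counted by strand is not given in the sources used here.

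BMPER changed direction between the treatments over the last 48 h. BMPER (ENSG00000164619, chr7:33904308-34156356, plus strand) was low in untreated cells, at 0.723, 0.805 and 1.26 CPM. At 36 h it was 2.1-fold lower with BMP4 (1.92 ± 0.421 CPM) than with Activin+BMP4 (4.06 ± 0.193 CPM; SD, n = 3 each), a call lost without BMP4 36 h replicate 2 (log2 -0.90). At 48 h it had 6.01, 4.4 and 5.29 CPM with BMP4 and, under Activin+BMP4, 19, 16 and 19.3 CPM, 3.45-fold lower with BMP4 and without overlap (log2 -1.79 ± 0.15 SE, edgeR adjusted p = 1.31e-13; -1.87 without Activin+BMP4 48 h replicate 2). At 72 h the groups overlapped, at 37.8 ± 2.32 CPM with BMP4 and, under Activin+BMP4, 33.1 ± 3.33 CPM. At 96 h BMPER had 125, 140 and 125 CPM with BMP4 and, under Activin+BMP4, 27.7, 26.6 and 15.9 CPM, 5.55-fold higher with BMP4 (log2 2.47 ± 0.12 SE, edgeR adjusted p = 9.41e-22). Without Activin+BMP4 96 h replicate 3, the lowest of those libraries, the log2 difference was 2.25. Between 48 h and 96 h BMPER rose 24.8-fold with BMP4 and was not called with Activin+BMP4 (1.29-fold).

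GREM1 was highest at 6 h in both treatments and ended below untreated cells with Activin+BMP4. GREM1 (ENSG00000166923, chr15:32717974-32745107, plus strand) encodes gremlin. At 6 h it had 22.7, 25 and 23.6 CPM with BMP4 and, under Activin+BMP4, 22, 16.6 and 16.4 CPM, against 5.62, 4.99 and 4.07 CPM in untreated cells, rises of 4.85-fold and 3.73-fold (edgeR adjusted p = 6.63e-14 and 1.29e-11). At 48 h it had 4.15, 3.87 and 4.26 CPM with BMP4 and, under Activin+BMP4, 11.2, 10.5 and 11 CPM, 2.66-fold lower with BMP4 (log2 -1.41 ± 0.19 SE, edgeR adjusted p = 3.96e-08; -1.44 without Activin+BMP4 48 h replicate 2). At 72 h the levels were 4.09 ± 0.276 CPM with BMP4 and, under Activin+BMP4, 2.05 ± 0.756 CPM, 2.02-fold higher with BMP4, a call lost without replicate 2 or 3 of Activin+BMP4 or replicate 3 of BMP4 at that time (log2 0.87, 0.86 and 0.97). At 96 h the libraries had 6.69, 6.85 and 8.06 CPM with BMP4 and, under Activin+BMP4, 0.667, 0.87 and 0.348 CPM, without overlap and 11.4-fold higher with BMP4 (log2 3.51 ± 0.26 SE, edgeR adjusted p = 2.18e-15; 3.21 without Activin+BMP4 96 h replicate 3). With Activin+BMP4 it fell by 4.10 ± 0.25 on the log2 scale between 48 h and 96 h (SE; edgeR adjusted p = 4.55e-18; by 3.80 without Activin+BMP4 96 h replicate 3), and it was the only one of the 9 genes called below untreated cells at 96 h. A long noncoding RNA gene on the opposite strand shares 188 exon bases with GREM1 and had 0 to 5 counts per library.

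Against untreated cells more of the 9 genes were called at 96 h than at 6 h in both treatments, though with BMP4 the count was no higher at 48 h than at 6 h. With BMP4 1 was called at 1 h (1.21% of all genes called), and the 6 h count was 5 (4.99%). The count stayed at 4 for 12 h (5.62%) and 24 h (7.21%), and at 5 for 36 h (8.41%) and 48 h (12.2%). It was 8 in BMP4-treated cells of 72 h (16.9%) and of 96 h (23.2%). Activin+BMP4-treated cells had 2 called at 1 h (0.867%), 4 at 6 h (5.69%) and 5 at 12 h (6.82%). Their count was 6 for 24 h (8.08%) and 36 h (10.5%), 7 for 48 h (15.8%) and 72 h (21.0%), and 9 for 96 h (26.5%). All of these comparisons share the 3 untreated libraries. At 96 h the 8 genes called with BMP4 were all higher, and GREM1 was the exception at 1.47-fold. With Activin+BMP4 8 were higher and GREM1 was lower. The calls of BMP2 at 1 h and of CHRD at 24 h with Activin+BMP4, both lower, did not hold in all fits: that of BMP2 was lost without untreated replicate 2 or Activin+BMP4 1 h replicate 1 or 2 (log2 -0.97, -0.97 and -0.99), and that of CHRD without untreated replicate 2 or 3 or Activin+BMP4 24 h replicate 2 or 3 (log2 -1.07, -0.97, -1.03 and -0.92). The CHRD call was lost as well with DESeq2 (log2 -1.12, adjusted p = 0.0786) and with no filter on low counts (log2 -1.10, edgeR adjusted p = 0.128). BMPER at 36 h with BMP4 (log2 1.06) lost its call without untreated replicate 1 or 2 or BMP4 36 h replicate 3 (log2 0.90, 0.97 and 0.92). The fitted values of NOG against untreated cells moved by over 1.5 times without untreated replicate 3, which held 3 of the 4 untreated counts, for example to a log2 change of 10.59 in place of 9.35 for BMP4 at 96 h, and to 7.25 in place of 6.01 for Activin+BMP4.

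**Figure D3:**
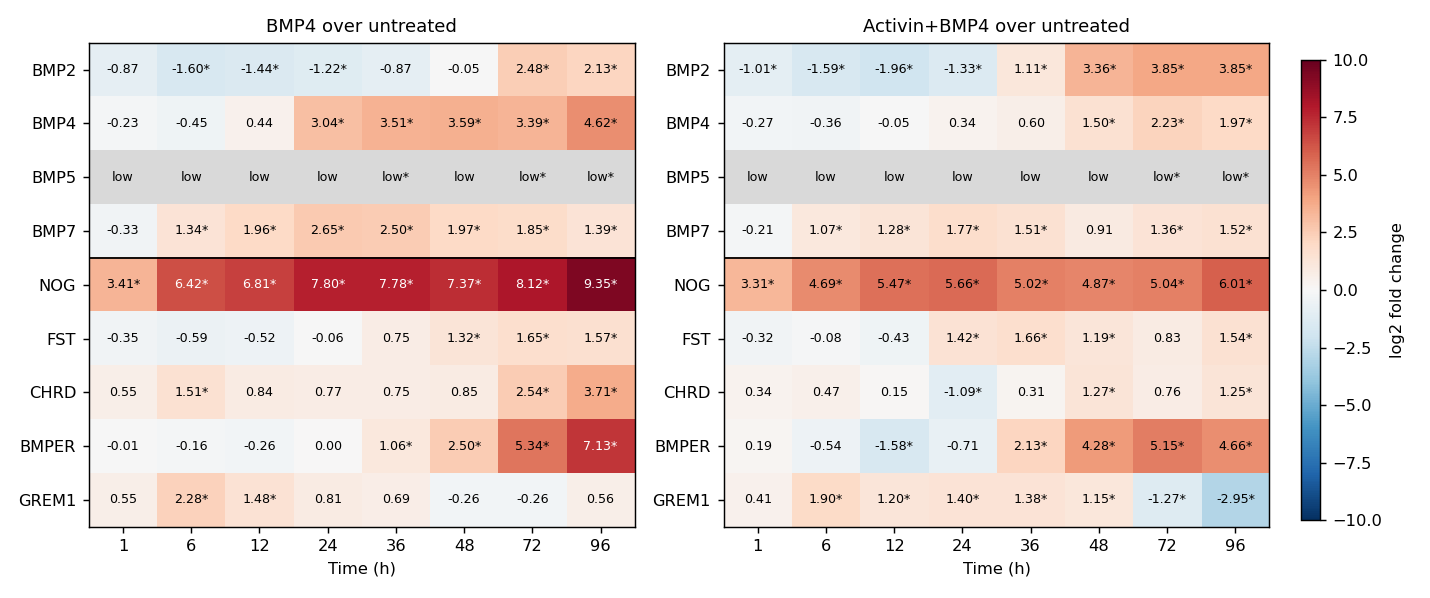
Log2 fold change over untreated cells of each gene (rows) at each time (columns) with BMP4 (left) and with Activin+BMP4 (right), with an asterisk where the gene was called. Grey cells marked low had 3 counts or fewer over a group and no fold is shown; GREM1 ends at 0.56 with BMP4 and at -2.95 with Activin+BMP4.

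Whether the difference between the treatments itself changed between 24 h and 96 h was tested as an interaction, in which 6 of the 9 genes were called beside 13.6% of all genes. The signed log2 difference, BMP4 over Activin+BMP4, rose for NOG, FST, BMPER and GREM1 and fell for BMP2 and BMP7. For FST and BMP7 this closed the gap, from -1.49 to 0.03 and from 0.88 to -0.13. The change was not called for BMP4 (log2 -0.06 ± 0.09 SE), which differed by 2.71 at 24 h and 2.65 at 96 h, nor for BMP5 or CHRD. Within a treatment, 6 genes were called between 48 h and 96 h with BMP4, all higher (BMP2, BMP4, BMP5, NOG, CHRD and BMPER; 12.8% of all genes called). With Activin+BMP4 3 were called, BMP5 and NOG higher and GREM1 lower (16.5% of all genes), and the call of NOG was lost without Activin+BMP4 96 h replicate 1 or 2 (log2 0.87 and 0.93).

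Levels of different genes were set side by side per kilobase of exon (GENCODE 29, GRCh38). The ligand sum reached 77.5 ± 7.12 CPM per kb with BMP4 and 57.2 ± 7.46 CPM per kb with Activin+BMP4 at 96 h, against 6.32 ± 0.583 CPM per kb in untreated cells (SD, n = 3 each). The ligand that led this level differed: with BMP4 it was the BMP4 transcript from 24 h on, at 76.1 ± 1.54% of the ligand sum at 96 h, and with Activin+BMP4 it was BMP2 from 36 h on, at 74.8 ± 3.85%. Among the antagonists FST led the level per kb in all 17 groups, but its share of their sum was 42.3 ± 3.4% with BMP4 and 84.6 ± 3.05% with Activin+BMP4 at 96 h, and 94.6 ± 0.348% in untreated cells. This lead rests on the length used, all annotated exons of a gene joined (FST 2.97 kb, BMPER 7.92 kb, GREM1 14.61 kb). By CPM alone BMPER was above FST with BMP4 at 96 h (130 and 82.9 CPM). So was GREM1 with BMP4 at 6 h (23.8 and 18.6 CPM). The antagonist sum was 66 ± 1.75 CPM per kb with BMP4 and 32.5 ± 6.98 CPM per kb with Activin+BMP4 at 96 h, against 9.96 ± 0.134 CPM per kb in untreated cells. At 48 h, by contrast, the antagonist sums were close, at 29.8 ± 0.185 and 25.5 ± 1.93 CPM per kb for BMP4 and Activin+BMP4.

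**Figure D4:**
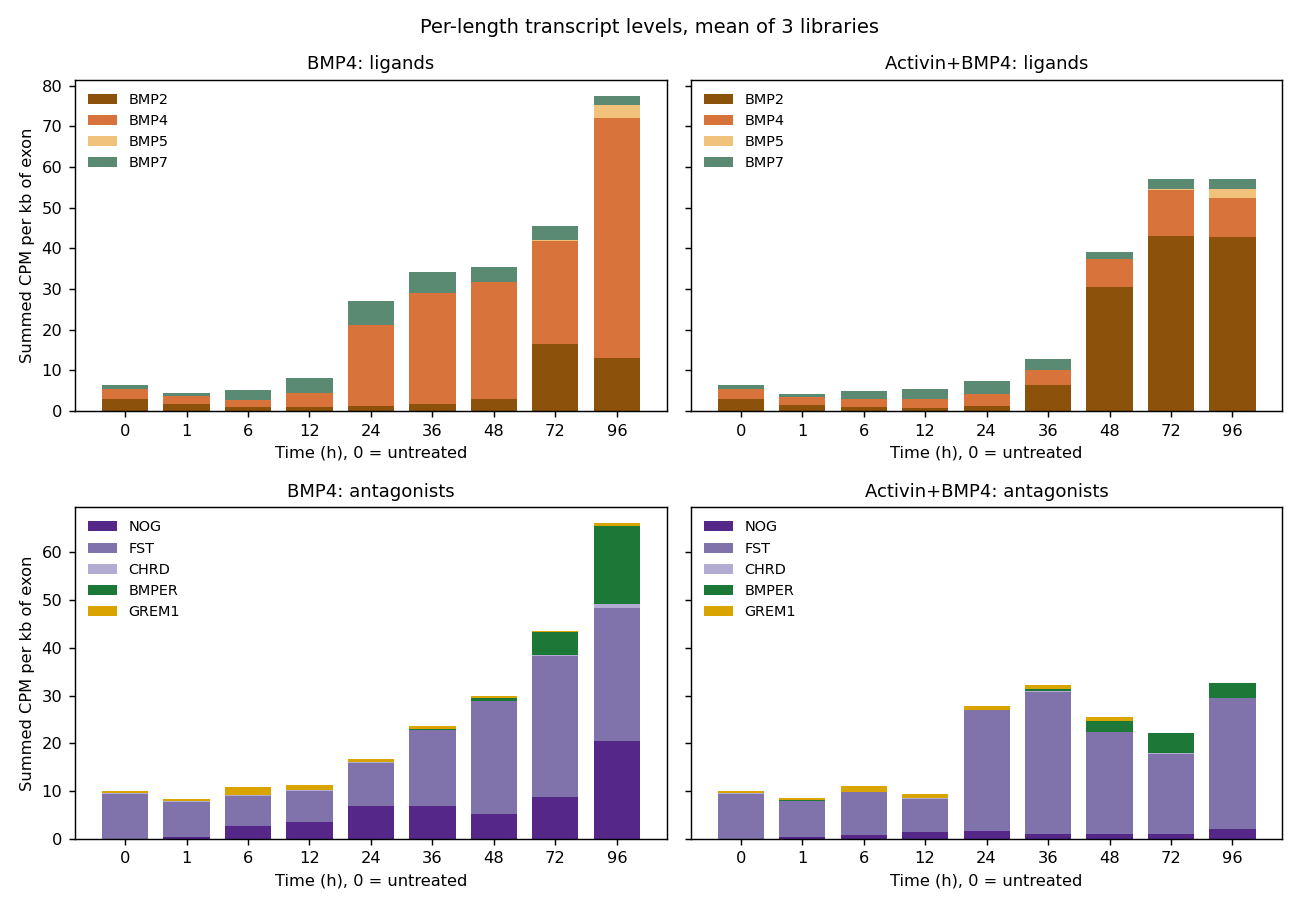
Mean CPM per kb of exon (vertical axes, linear from 0, 3 libraries a group) of the 4 ligands (top) and 5 antagonists (bottom), stacked by gene, by time in hours with 0 for untreated cells, with BMP4 (left) and with Activin+BMP4 (right). The ligand bars are mostly BMP4 transcript on the left from 24 h and mostly BMP2 on the right from 36 h, and NOG and BMPER make up much of the antagonist bar with BMP4 at 96 h.

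The 17 groups were ordered by the mean level of each gene. BMPER ran from 130 ± 8.41 CPM with BMP4 at 96 h to 0.306 ± 0.081 CPM with Activin+BMP4 at 12 h, a 425-fold span in which the libraries overlapped for 9 of 16 neighbouring pairs of groups. That of NOG was wider still, from 38.7 ± 5.22 CPM with BMP4 at 96 h to 0.0553 ± 0.0642 CPM in untreated cells, where it rests on 4 counts, and BMP5 had 0 counts in its lowest group. The span was 56.2-fold for BMP2, 37.9-fold for GREM1, 33.4-fold for BMP4, 28.7-fold for CHRD, 7.91-fold for BMP7 and 4.76-fold for FST. For FST, BMP5 and CHRD 13 of 16 neighbouring pairs overlapped, against 7 of 16 for the BMP4 transcript, the fewest among the 9 genes. BMP5 and CHRD rest on few counts before 72 h, which limits their order. The groups were ordered on these same values, and the same count over all genes was not made. Across the 17 group means, which share their libraries and depth, the closest pairs among the 9 genes were BMPER with BMP2 (Pearson r = 0.90 on log2 CPM), BMPER with BMP5 (0.84) and NOG with BMP7 (0.80), and the most opposed pair was GREM1 with BMP2 (-0.68). As BMP5 was close to absent up to 48 h, its correlations rest mostly on the groups at 72 and 96 h.

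Among 12758 other genes the patterns most like those of the 9 genes over the 17 group means were as follows. BMP4 was closest to FSTL1 (r = 0.975), ARID5B (0.970) and KRT8 (0.966), all highest with BMP4 at 96 h. BMP2 was closest to P3H2 (0.982), MEIS3 (0.980) and GATA6-AS1 (0.970), all highest with Activin+BMP4 at 72 or 96 h. NOG was closest to FZD1 (0.927), GATA5 (0.922) and SMAD9 (0.920), the last being a signal transducer of the BMP pathway. FST was closest to TBXT (0.951), OXR1 (0.928) and SP5 (0.918); TBXT, the brachyury gene of the primitive streak, was highest at 36 h with Activin+BMP4, as was FST. BMPER was closest to GJA5 (0.981), EGFLAM (0.980) and RDX (0.976), BMP5 to HDAC6 (0.978), GASK1B (0.961) and JCAD (0.960), and CHRD to EFNB1 (0.951), CFC1 (0.948) and ELFN1 (0.916). Those of BMP5 again rest mostly on its late groups. BMP7 was closest to PCAT14 (0.929), KCNK13 (0.924) and GSTO2 (0.923), and GREM1 to MMS22L (0.965), EZH2 (0.958) and RIOK2 (0.951).

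The rest of the pathway was counted by role for BMP4 against Activin+BMP4. Of 17 other ligands 10 passed the filter, and at 96 h, when 15.6% of all genes were called in either direction, 5 were higher and 3 lower with BMP4. GDF6, a BMP-type ligand, averaged 41.4 ± 3.13 CPM with BMP4 and, under Activin+BMP4, 1.55 ± 0.285 CPM, while NODAL, an activin-like ligand, averaged 7.76 ± 1.3 CPM and 89.8 ± 13.8 CPM (SD, n = 3 each). INHBA, which encodes the activin A subunit, had 1506 counts with BMP4 and 3 counts with Activin+BMP4, a 500-fold ratio (95% interval for counting error alone 171 to 2428). Of 22 other antagonists and modulators 19 passed the filter, and at 96 h 2 were higher and 5 lower with BMP4, among them CER1 (49.4 ± 5.26 CPM with BMP4 and, under Activin+BMP4, 2917 ± 438 CPM) and LEFTY1 (0.564 ± 0.349 CPM with BMP4 and, under Activin+BMP4, 551 ± 52.7 CPM). CER1 is also one of the 8 endoderm markers and makes up most of their sum with Activin+BMP4 at 96 h. CER1 and the LEFTY proteins block NODAL, and CER1 also binds BMPs in frog embryos. At 96 h NOG, CHRD, BMPER and GREM1 were thus higher with BMP4, while FST was not called. Of the other antagonists and modulators CHRDL2 and BMP1 were higher, and CER1, NBL1, LEFTY1 and LEFTY2 were among those lower. BMP1, despite its name, was listed as a modulator and not as a ligand.

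Of 15 receptors and co-receptors 14 passed the filter, and at 96 h 3 were higher with BMP4 (ACVRL1, ENG and BAMBI) and 3 lower (BMPR1B, RGMB and TDGF1). TDGF1 is also among the pluripotency genes above, at 834 CPM in untreated cells. At 96 h it had 175 CPM with BMP4 and, under Activin+BMP4, 829 CPM. BAMBI, a decoy receptor of the family, averaged 246 ± 13.1 CPM with BMP4 and, under Activin+BMP4, 31.2 ± 2.87 CPM. Of 12 intracellular components SMAD9 alone was called at 96 h, at 36.4 ± 0.432 CPM with BMP4 and, under Activin+BMP4, 7.94 ± 0.365 CPM (log2 2.20 ± 0.11 SE, edgeR adjusted p = 1.05e-20). Of 12 BMP targets 7 were higher with BMP4 at 24 h (4.01% of all genes called in either direction) and 11 at 96 h (15.6%). HAND1 averaged 576 ± 49 CPM with BMP4 and, under Activin+BMP4, 7.54 ± 1.59 CPM, MSX1 104 ± 8.08 and 0.361 ± 0.0359 CPM, and GATA2 49.5 ± 4.76 and 0.498 ± 0.334 CPM. HAND1 is also one of the mesoderm markers above, and the targets TFAP2A and GATA3 are among the amnion markers above. Against untreated cells 12 of the 12 targets were higher at 24 h with BMP4 (7.21% of all genes called) and 12 with Activin+BMP4 (8.08%), and at 96 h 12 were higher with BMP4 (23.2%) and 7 with Activin+BMP4 (26.5%).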

How the data were processed

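RNA from H1 cells (400 ng a library, KAPA RNA HyperPrep kit, per the labels' protocols) was sequenced. The authors deposited 1 table of whole-number counts per gene; per the submitters' processing notes the tools included cutadapt 1.5, STAR 2.5.2a and RSEM 1.3.0 with GRCh38, with no roles given. Whether the counts are rounded RSEM estimates, and the strand setting, are not given in the sources used here. All 51 columns matched a sample and 0 belonged to none.

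The filter was filterByExpr of edgeR 4.0.16 (minimum count 10 and total 15); it left 19603 genes and 99.95% of counts, scaled by TMM factors (0.966 to 1.03). A model with 1 mean per group was fitted over 51 libraries in R 4.3.3, and edgeR's quasi-likelihood test was run for 27 contrasts, with p-values adjusted within each. Scripts were tested on simulated data. CPM uses the TMM-scaled totals. Intervals cover counting error only. Standard errors are the log2 change over the root of F. Genes other than the 9 were named where they were called, reached 5 CPM and had the largest changes at 24 or 96 h in their role (up to 4), or had the 3 highest correlations. The 9 genes, the pathway and marker lists and the tests were chosen with earlier results of these data known.

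The alternatives were DESeq2 1.42.0, other size factors, no scaling, no or a stricter filter, fits of only the groups compared, a replicate block and leaving out each library. Replicate numbers did not pair the samples.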

Additional observations from a re-analysis of the deposited data

Results flagged for a closer look

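Between 24 h and 96 h the difference between BMP4 and Activin+BMP4 changed for 6 of the 9 genes, beside 13.6% of all genes. These calls are from an interaction term in edgeR's quasi-likelihood test. For GREM1 the change was 4.10 ± 0.32 (log2, SE; adjusted p = 2.06e-14): with BMP4 GREM1 averaged 8.57 CPM at 24 h, against 12.9 CPM with Activin+BMP4, and at 96 h the means were 7.2 CPM with BMP4 and, under Activin+BMP4, 0.628 CPM. For BMPER it was 1.76 ± 0.43 (adjusted p = 0.000809) and for FST 1.52 ± 0.14 (adjusted p = 4.7e-12). For NOG it was 1.21 ± 0.31 (adjusted p = 0.00139), and the call was lost without Activin+BMP4 96 h replicate 3 (log2 0.80). For BMP2 it was -1.83 ± 0.25 (adjusted p = 4.98e-08). For BMP7 it was -1.01 ± 0.13 (adjusted p = 2.31e-08), and the call was lost without Activin+BMP4 96 h replicate 3, BMP4 24 h replicate 2 or BMP4 96 h replicate 2 (log2 -0.90, -0.96 and -0.97).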

How the results depend on the processing

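Of 243 single changes (9 genes in 27 contrasts), 129 were called. The contrasts share libraries, and from 0.00510% to 26.5% of all genes were called in a contrast. Over 3193 values under the alternatives 50 differed in call, 32 losing and 18 gaining it, in 23 of the 243, and 0 called values changed sign. The 9 genes gave 2 calls for BMP4 against Activin+BMP4 at 6 h, but 1 with no filter and with only the groups compared, where CHRD was lost, and 1 to 2 with a library left out. At 12 h they gave 1 call, but 2 with no scaling, with no filter, with the stricter filter and with DESeq2, where BMPER was gained, and 1 to 2 with a library left out. Over all genes the count at 1 h was 1, but 148 with no filter, 19 with only the groups compared and 7 with DESeq2, and at 6 h it was 99, but 243 with no filter. The cause was not tested. Samples of the same number did not deviate together (correlations of -0.133 to 0.112 over 8 comparisons, with 0 comparisons where all pairs exceeded 0.1), and a replicate block changed 0 calls of the 9 genes, with 6 called at 96 h as without the block. Depth limits BMP5 before 72 h, NOG in untreated cells and CHRD before 72 h, which rest on few counts, and 20 changes, most of them of BMP5, could not be tested with only the groups compared.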
